A study of Mus musculus with 15 samples.

Results

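Messenger RNA levels of 6 exporter genes of the liver were described: Abcb11, Abcb4, Abcb1a, Abcb1b, Slc51a and Slc51b. They were chosen by name, as the pumps for bile salts, phospholipid and drugs of the ABCB family together with both subunits of the organic solute transporter, out of 18820 genes measured. Each had exactly 1 probe set annotated to it alone, so no choice between probe sets was needed. All 15 arrays in 5 groups of 3 entered the comparisons. The members were chosen by gene identity, but with earlier results of these data known.

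Hepatocytes secrete bile across the canalicular membrane and return some solutes to blood across the basolateral membrane. Abcb11 encodes the bile salt export pump, which moves conjugated bile acids into bile against a steep gradient. Abcb4 encodes the floppase that supplies phosphatidylcholine to bile, where it forms mixed micelles with bile salts. Abcb1a and Abcb1b encode the P-glycoproteins of the mouse, which export hydrophobic drugs and which correspond to a single human gene. Slc51a and Slc51b encode the α and β subunits of a basolateral transporter that exports bile acids and needs both subunits to work. FXR (gene Nr1h4) is the nuclear receptor activated by bile acids, and Abcb11, Abcb4, Slc51a and Slc51b are textbook targets of it.

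The cells were primary hepatocytes from male C57BL/6J mice, plated on collagen after perfusion with collagenase. The control group received an adenovirus for GFP alone. Each of the other groups received an adenovirus for 1 human FXR isoform, FXRα1, FXRα2, FXRα3 or FXRα4, that carried GFP as well under a CMV promoter of its own. As background on these isoforms, FXRα1 and FXRα3 carry a short insert, MYTG, next to the domain that binds DNA, and FXRα2 and FXRα4 are spliced without it. The N-terminus is shorter in FXRα1 and FXRα2 and longer in FXRα3 and FXRα4. RNA was taken 36 h after transduction, the last 24 h of it without dexamethasone or insulin, in all groups alike. The endogenous mouse receptor was present in every group, and the protocols name no added FXR ligand. The level of each human receptor was not measured separately. Whether the mouse Nr1h4 probe set also reads the human transcripts could not be checked without probe sequences. The sources used here give neither the age of the mice nor whether replicates were separate animals or cultures. The p-values therefore reflect the spread of these samples alone, part of which could be technical.

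The promoters are shown first because the receptor under study binds DNA at repeats of the hexamer AGGTCA, and its classical site is an inverted repeat of that hexamer with 1 base between. Promoter windows from RefSeq (GRCm38.p6), 250 bases before each start and 50 after it, were found for all 6 genes. The inverted repeat AGGTCANTGACCT reads the same on both strands, so a search for it covers both. The closest match in each window is given here 5′ to 3′, with letters that equal the repeat in capitals and mismatches and the spacer in lower case.
Abcb11: AGGcCAtTGACCT
Abcb4: tGGTtgtTGAaCT
Abcb1a: AaGgCAgTtAtgT
Abcb1b: tGGaCAcTtACCT
Slc51a: AGGaCttTGtCCT
Slc51b: gGGTCAtTcACCc
Abcb11 matched 11 of the 12 fixed letters, between 63 and 51 bases before the start. A match that close, with at most 1 mismatch, was found in 27 of 32851 windows of the table, or 0.0822%. The best matches of Abcb1b, Slc51a and Slc51b had 3 mismatches, which 11.4% of all windows reach or better, that of Abcb4 had 4, reached by 56.4%, and that of Abcb1a had 5. In Abcb1a, 4 positions tied at that number, and the one farthest from the start is shown. The everted repeat TGACCTNNAGGTCA, the same hexamers turned outwards with 2 bases between, was searched in the same way. Its closest match had 3 mismatches in Abcb11, a level that 12.2% of windows reach, and 4 or 5 in the other members. In Abcb11, 2 positions tied at that number, and the one listed first, from 71 to 58 bases before the start, overlaps the inverted match. Such matches describe the letters of these windows and do not show binding.

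The 250 bases before the Abcb11 start are shown with the inverted repeat in capitals, since this gene had the closest match and the largest fold change of the members with FXRα1 and FXRα2. They lie on the minus strand at chr2:69342617-69342866 of GRCm38.p6.
Abcb11: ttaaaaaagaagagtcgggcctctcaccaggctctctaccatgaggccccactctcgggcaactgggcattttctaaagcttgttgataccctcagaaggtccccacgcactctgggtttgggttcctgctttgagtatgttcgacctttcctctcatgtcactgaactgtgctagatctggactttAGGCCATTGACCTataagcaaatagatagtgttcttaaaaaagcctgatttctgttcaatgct
The corresponding bases of Abcb1a, which also responded strongly but had the weakest match, lie on the plus strand at chr5:8566841-8567090.
Abcb1a: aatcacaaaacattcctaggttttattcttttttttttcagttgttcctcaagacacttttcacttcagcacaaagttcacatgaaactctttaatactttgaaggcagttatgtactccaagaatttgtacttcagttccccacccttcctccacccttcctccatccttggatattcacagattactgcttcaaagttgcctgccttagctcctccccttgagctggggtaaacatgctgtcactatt
The Abcb1a window contained no copy of the hexamer AGGTCA on either strand, and neither did the windows of Abcb4 and Abcb1b. Abcb11, Slc51a and Slc51b had 1 copy each, where 16.3% of all windows have at least 1.

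**Figure D1:**
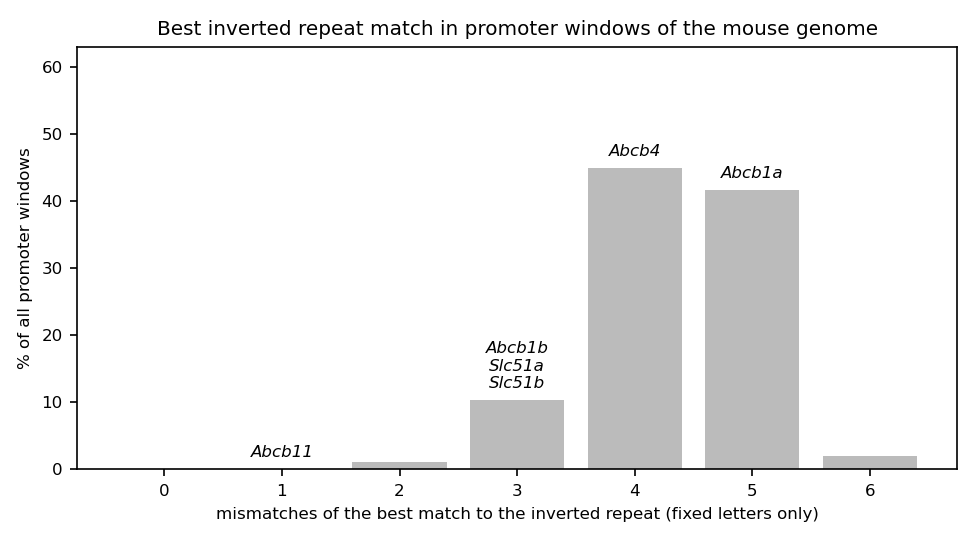
Best match to the inverted repeat AGGTCANTGACCT in 32851 mouse promoter windows of 300 bases. The x axis is the number of mismatches among 12 fixed letters, the bars give the percent of windows on the y axis, and the members stand above the bar they belong to, Abcb11 at 1 mismatch and the others at 3 to 5.

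Fold changes of the members with each isoform are given below on the log2 scale of the deposited values, with the standard error from a limma fit over all genes. A gene is said to have risen, fallen or differed at a Benjamini-Hochberg adjusted p under 0.05, and each ± after a group mean is the SD of 3 arrays. The 15 arrays had medians between 4.92 and 5.01, their number limits the precision, and no 2 arrays held identical values. All 9 hepatocyte markers that were measured lay above the array median on every array, and all 6 lymphocyte and neutrophil markers at or below it. Also above it on every array were 3 of 7 sinusoidal endothelial, 1 of 8 Kupffer cell and 1 of 8 stellate cell and fibroblast markers. Against GFP, Stab1 of the endothelial list rose with FXRα1 (0.56 ± 0.11) and Stab2 with FXRα2 (0.30 ± 0.11). Timd4 of the Kupffer list rose with FXRα2 (0.21 ± 0.08), and Acta2 of the stellate list fell with FXRα4 (−0.34 ± 0.12). The hepatocyte markers also moved with the groups: 2 rose and 1 fell with FXRα1, 7 and 1 with FXRα2, 6 and 1 with FXRα3, and 7 and 1 with FXRα4, with medians of 0.097, 0.30, 0.27 and 0.36. The last of these medians is as large as the rise of Abcb4 with FXRα4. Their summed linear level was 20222 to 21275 with GFP, 21089 to 22362 in the FXRα1 group, 22814 to 24226 in the FXRα2 group, 22344 to 23897 in the FXRα3 group and 22693 to 23500 in the FXRα4 group. RNA came from whole cultures, in which fewer cells of a type and less RNA per cell cannot be told apart. Among 8 cholangiocyte markers, Krt7, Cftr, Tff2 and Muc1 were at or below the median of every array, while the summed linear level of the list was 1198 to 1307 with GFP, 2348 to 2416 in the FXRα1 group, 1750 to 2102 in the FXRα2 group, 2857 to 3163 in the FXRα3 group and 1838 to 2060 in the FXRα4 group. In that list 3 genes rose and 0 fell with FXRα1 and with FXRα3, and 2 rose and 2 fell with FXRα2 and with FXRα4, where Epcam rose (4.95 ± 0.10 with FXRα2) and Krt19 fell (−1.82 ± 0.09 with FXRα2). The part of hepatocyte content or of other cell types in the exporter results was not tested.

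Abcb11, Abcb4, Abcb1a and Abcb1b rose against GFP with each isoform, Slc51b rose with FXRα1, FXRα2 and FXRα4, and Slc51a rose with none. With FXRα1, 5 of the 6 members rose and 0 fell, where 8.42% of all genes rose and 4% (752 genes) fell. With FXRα2, 5 rose and 0 fell, beside 17.5% and 16.7% of all genes, and with FXRα4, 5 rose and 0 fell, beside 18.0% and 15.7%. With FXRα3, 4 rose and 0 fell, beside 7.45% and 6.62%. The median log2 change over the 6 members was 0.69, 0.81, 0.27 and 0.51 for FXRα1 to FXRα4 in that order, where the median of all genes was 0.0035, −0.048, −0.0026 and −0.027. The 4 comparisons share the GFP arrays, so their counts are not independent of each other.

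**Figure D2:**
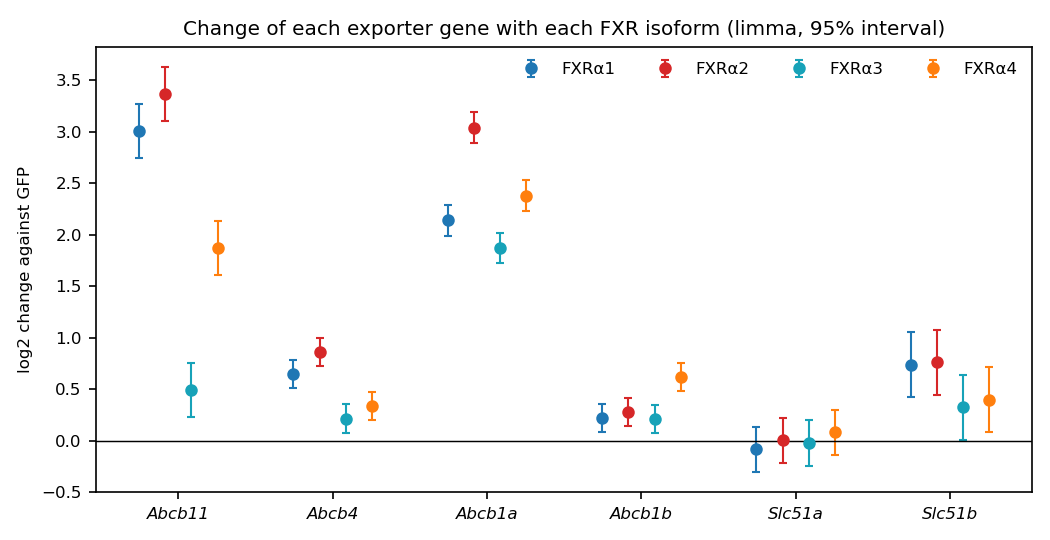
Change of each exporter gene with each isoform. The y axis is the log2 change against GFP from limma with its 95% interval, 3 arrays per group, and colours mark the isoforms; Abcb11 spans 0.49 with FXRα3 to 3.36 with FXRα2, whereas the intervals of Slc51a include 0 throughout.

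Abcb11, the bile salt pump, had the widest range of group means among the members, from 5.17 ± 0.12 with GFP to 8.53 ± 0.17 with FXRα2. Its log2 values were 5.27, 5.04 and 5.21 with GFP, 8.27, 7.88 and 8.39 with FXRα1, 8.46, 8.41 and 8.73 with FXRα2, 5.53, 5.51 and 5.95 with FXRα3, and 7.08, 7.03 and 7.03 with FXRα4. The 5 groups did not overlap on any array and followed the order GFP, FXRα3, FXRα4, FXRα1 and FXRα2. Abcb11 rose 8.06-fold with FXRα1 (log2 3.01 ± 0.13, adjusted p = 3.5e-13) and 10.3-fold with FXRα2 (3.36 ± 0.13, adjusted p = 6.22e-15). The rise was 3.66-fold with FXRα4 (1.87 ± 0.13, adjusted p = 8.52e-11) and 1.41-fold with FXRα3 (0.49 ± 0.13, adjusted p = 0.00928). The groups of both isoforms with the shorter N-terminus had the higher levels. The FXRα3 call was lost without FXRα3 replicate 3, the highest of its group (0.35, adjusted p = 0.0869), without GFP replicate 2 (0.43, adjusted p = 0.0582) and with every probe set tested (adjusted p = 0.0558).

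Abcb1a, a P-glycoprotein gene, rose strongly with all 4 isoforms. It read 6.98, 6.85 and 7.05 with GFP, 9.16, 9.02 and 9.12 with FXRα1, 9.92, 10.00 and 10.08 with FXRα2, 8.80, 8.75 and 8.94 with FXRα3, and 9.20, 9.39 and 9.43 with FXRα4. Every array with an isoform stood above every GFP array by more than the range of any group, and neighbouring groups did not overlap in the order GFP, FXRα3, FXRα1, FXRα4 and FXRα2. The rises were 4.41-fold with FXRα1 (2.14 ± 0.07, adjusted p = 7.49e-15), 8.22-fold with FXRα2 (3.04 ± 0.07, adjusted p = 2.49e-18), 3.66-fold with FXRα3 (1.87 ± 0.07, adjusted p = 7.95e-14) and 5.20-fold with FXRα4 (2.38 ± 0.07, adjusted p = 3.32e-16). FXRα3, with which Abcb11 rose least, thus still carried a large rise of Abcb1a.

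Abcb4, the phospholipid floppase gene, followed the order of Abcb11 on a smaller scale. Its values were 8.59, 8.41 and 8.48 with GFP, 9.19, 9.06 and 9.18 with FXRα1, 9.48, 9.36 and 9.22 with FXRα2, 8.71, 8.69 and 8.73 with FXRα3, and 8.92, 8.82 and 8.76 with FXRα4. No neighbouring groups overlapped in the order GFP, FXRα3, FXRα4, FXRα1 and FXRα2. Abcb4 rose 1.57-fold with FXRα1 (0.65 ± 0.07, adjusted p = 3.03e-07), 1.82-fold with FXRα2 (0.86 ± 0.07, adjusted p = 6.59e-10), 1.26-fold with FXRα4 (0.34 ± 0.07, adjusted p = 0.000294) and 1.16-fold with FXRα3 (0.22 ± 0.07, adjusted p = 0.0326). The FXRα4 call was lost with centring on the median gene of each array (0.13, adjusted p = 0.131). The FXRα3 call was lost without any 1 of the FXRα3 arrays (0.20 to 0.23, adjusted p = 0.0681 to 0.105), without GFP replicate 2 (0.18, adjusted p = 0.173) or 3 (0.21, adjusted p = 0.0981), with centring on the median gene (0.18, adjusted p = 0.126), without the mean-variance trend (adjusted p = 0.0738) and with every probe set tested (adjusted p = 0.0936).

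Abcb1b, the other P-glycoprotein gene, had its largest change with FXRα4. It stood at 9.90, 9.85 and 9.80 with GFP, 10.06, 10.00 and 10.15 with FXRα1, 10.02, 10.11 and 10.26 with FXRα2, 9.96, 10.12 and 10.10 with FXRα3, and 10.39, 10.41 and 10.60 with FXRα4. The FXRα1, FXRα2 and FXRα3 arrays overlapped each other, all GFP arrays lay below them and all FXRα4 arrays above. Abcb1b rose by 0.62 ± 0.06 with FXRα4 (1.54-fold, adjusted p = 6.5e-08) and by 0.28 ± 0.06 with FXRα2 (1.21-fold, adjusted p = 0.00137). The smaller rises of 0.22 ± 0.06 with FXRα1 (adjusted p = 0.0233) and 0.21 ± 0.06 with FXRα3 (adjusted p = 0.0284) kept their size without any 1 array (0.18 to 0.26 for both), but their calls were lost in several alternatives. The FXRα1 call was lost without FXRα1 replicate 1 (0.23) or 3 (0.18) and without GFP replicate 2 (0.22) or 3 (0.20), and the FXRα3 call without FXRα3 replicate 2 (0.18) or 3 (0.19) and without GFP replicate 2 (0.21) or 3 (0.19), with adjusted p from 0.0528 to 0.132. With all arrays kept, both calls were lost without the mean-variance trend (adjusted p = 0.0864 and 0.0957) and with every probe set tested (adjusted p = 0.0957 and 0.108). With centring on the median gene Abcb1b was at 0.12 with FXRα1 (adjusted p = 0.131) and 0.058 with FXRα2 (adjusted p = 0.308). Abcb1a and Abcb1b are close paralogs, and whether their probes read each other's transcript could not be checked here without probe sequences.

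Of the subunits of the organic solute transporter, Slc51b passed with 3 isoforms and Slc51a with 0, and the difference between the subunits was not tested. Slc51b, the β subunit gene, read 3.93, 4.50 and 4.28 with GFP, 5.15, 5.04 and 4.74 with FXRα1, 4.96, 4.73 and 5.31 with FXRα2, 4.49, 4.59 and 4.59 with FXRα3, and 4.81, 4.57 and 4.54 with FXRα4. It rose 1.67-fold with FXRα1 (0.74 ± 0.15, adjusted p = 0.00151) and 1.70-fold with FXRα2 (0.76 ± 0.15, adjusted p = 0.000325), and neither group overlapped GFP. The change with FXRα4 was 0.40 ± 0.15 (adjusted p = 0.0457). This call was lost in 12 of 18 alternatives, among them the fit without GFP replicate 1 (0.24, adjusted p = 0.274), the lowest Slc51b array, without GFP replicate 3 (0.42, adjusted p = 0.0755), and without FXRα4 replicate 1 (0.31, adjusted p = 0.17), 2 (0.44, adjusted p = 0.061) or 3 (0.45, adjusted p = 0.0519). With FXRα3 the change was 0.32 ± 0.15 and did not pass (adjusted p = 0.2). All neighbouring groups overlapped in the order GFP, FXRα3, FXRα4, FXRα1 and FXRα2.

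Slc51a, the α subunit gene, read 3.78, 4.05 and 3.84 with GFP, 3.64, 3.98 and 3.79 with FXRα1, 3.98, 3.79 and 3.91 with FXRα2, 3.97, 3.89 and 3.74 with FXRα3, and 4.10, 3.86 and 3.95 with FXRα4. All groups overlapped, and every value lay at or under the median of its own array. The changes were −0.084 ± 0.11 with FXRα1 (95% interval −0.30 to 0.14), 0.0051 ± 0.11 with FXRα2 (−0.22 to 0.23), −0.023 ± 0.11 with FXRα3 (−0.24 to 0.20) and 0.082 ± 0.11 with FXRα4 (−0.14 to 0.30). The values carry no detection call. Slc51b was above the array median on 2 of the 3 arrays with FXRα1 and 2 of the 3 with FXRα2, and on 0 arrays of the other groups.

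**Figure D3:**
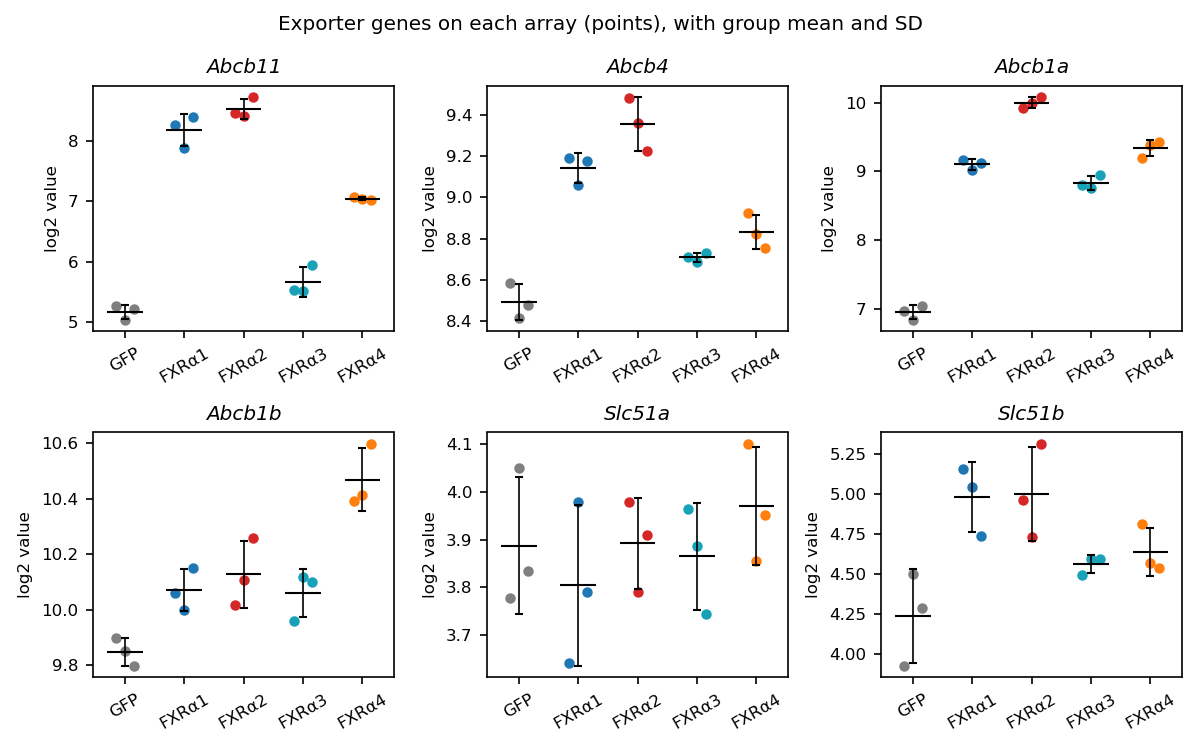
Log2 values of the 6 exporter genes on all 15 arrays. Points are arrays, grouped on the x axis by adenovirus, and the bar and whiskers are the mean and SD of 3 arrays. Abcb11, Abcb4 and Abcb1a separate all 5 groups, while the groups of Slc51a overlap.

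The next comparisons set isoforms without the MYTG insert against those with it, FXRα2 against FXRα1 on the shorter N-terminus and FXRα4 against FXRα3 on the longer. Since human receptor levels were not measured separately, the isoform and the amount of receptor made from each virus cannot be told apart in these and the following comparisons. Abcb11 and Abcb1a were higher in the groups without the insert on both N-termini. With the shorter N-terminus, 3 members were higher and 0 lower in FXRα2 than in FXRα1, where 14.1% of all genes were higher and 17.1% lower. These were Abcb1a (0.90 ± 0.07, adjusted p = 1.73e-09), Abcb11 (0.35 ± 0.13, adjusted p = 0.0371) and Abcb4 (0.21 ± 0.07, adjusted p = 0.0167). The Abcb11 call was lost without FXRα1 replicate 2 (0.20, adjusted p = 0.24), FXRα2 replicate 1 (0.39, adjusted p = 0.0537) or FXRα2 replicate 3 (0.25, adjusted p = 0.173). With all arrays kept, it was also lost without the mean-variance trend (adjusted p = 0.0624), with array weights (0.28, adjusted p = 0.0839) and with every probe set tested (adjusted p = 0.11). The Abcb4 call was lost without FXRα1 replicate 2 (0.17, adjusted p = 0.0766) or FXRα2 replicate 1 (0.15, adjusted p = 0.131), and both calls with centring on the median gene (0.24 for Abcb11, adjusted p = 0.0679, and 0.097 for Abcb4, adjusted p = 0.29). With the longer N-terminus, 3 members were higher and 0 lower in FXRα4 than in FXRα3, beside 15.8% and 13.8% of all genes. Abcb11 was 2.61-fold higher (1.38 ± 0.13, adjusted p = 1.59e-08), Abcb1a 1.42-fold (0.51 ± 0.07, adjusted p = 7.39e-06) and Abcb1b 1.33-fold (0.41 ± 0.06, adjusted p = 2.75e-05). Abcb4 did not pass there (0.12 ± 0.07, 95% interval −0.015 to 0.26, adjusted p = 0.191), nor did Slc51b on either N-terminus (0.023, 95% interval −0.29 to 0.34, and 0.076, −0.24 to 0.39).

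The N-terminus was compared in the same way, FXRα3 against FXRα1 with the insert and FXRα4 against FXRα2 without it. The longer N-terminus went with lower Abcb11, Abcb4 and Abcb1a in both comparisons. In FXRα3 against FXRα1, 3 members were lower and 0 higher, where 4.65% of all genes were lower and 2.21% higher. Abcb11 was 5.73-fold lower (−2.52 ± 0.13, adjusted p = 2.96e-11), Abcb4 1.35-fold lower (−0.43 ± 0.07, adjusted p = 0.000195) and Abcb1a 1.20-fold lower (−0.27 ± 0.07, adjusted p = 0.0237). The Abcb1a call was lost without FXRα1 replicate 1 (−0.24) or 3 (−0.26) or FXRα3 replicate 1 (−0.25) or 2 (−0.23), with adjusted p from 0.0744 to 0.142, and with all arrays kept without the mean-variance trend (adjusted p = 0.0665) and with every probe set tested (adjusted p = 0.0936). In FXRα4 against FXRα2, 3 members were lower, beside 12.0% of all genes, and 1 was higher, beside 11.7%. Abcb11 was 2.81-fold lower (−1.49 ± 0.13, adjusted p = 1.1e-08), Abcb1a 1.58-fold lower (−0.66 ± 0.07, adjusted p = 3.85e-07) and Abcb4 1.44-fold lower (−0.52 ± 0.07, adjusted p = 3.52e-06), whereas Abcb1b was 1.27-fold higher (0.34 ± 0.06, adjusted p = 0.000355). Slc51b stood at −0.42 ± 0.15 (adjusted p = 0.113) and −0.36 ± 0.15 (adjusted p = 0.0932) and did not pass, although the former passed with array weights (−0.47, adjusted p = 0.0305) and the latter without FXRα2 replicate 2 (−0.50, adjusted p = 0.0312). FXRα4 and FXRα1 differ in both features, and the alternative fits were not run for this comparison. Against FXRα1, FXRα4 gave 2 members lower and 2 higher, beside 16.8% and 15.2% of all genes. Abcb11 was 2.20-fold lower (−1.14 ± 0.13, adjusted p = 2.21e-07) and Abcb4 1.24-fold lower (−0.31 ± 0.07, adjusted p = 0.000805), while Abcb1b was 1.32-fold higher (0.40 ± 0.06, adjusted p = 3.23e-05) and Abcb1a 1.18-fold higher (0.24 ± 0.07, adjusted p = 0.0122).

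Whether the difference between isoforms without and with the insert was equal on both N-termini was tested as the interaction, the difference of FXRα4 from FXRα3 minus that of FXRα2 from FXRα1. Of the 6 members 3 passed, 2 with a larger and 1 with a smaller difference on the longer N-terminus, beside 7.24% and 5.63% of all genes. For Abcb11 the interaction was 1.03 ± 0.18 (adjusted p = 0.000416): its level without the insert was higher by 1.38 on the longer N-terminus and by 0.35 on the shorter. For Abcb1a it was −0.39 ± 0.10 (adjusted p = 0.0117), with differences of 0.51 and 0.90. For Abcb1b it was 0.35 ± 0.09 (adjusted p = 0.0115), with differences of 0.41 and 0.057. The neighbouring pump genes Abcb1a and Abcb1b thus had interactions of opposite sign. Both calls were lost with every probe set tested (adjusted p = 0.0525 and 0.06), and that of Abcb1b also without the mean-variance trend (adjusted p = 0.0508). Abcb4 (−0.09 ± 0.09, 95% interval −0.29 to 0.11, adjusted p = 0.642), Slc51b (0.053 ± 0.21, −0.39 to 0.50, adjusted p = 0.929) and Slc51a (0.016 ± 0.15, −0.30 to 0.33, adjusted p = 0.97) did not pass.

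**Figure D4:**
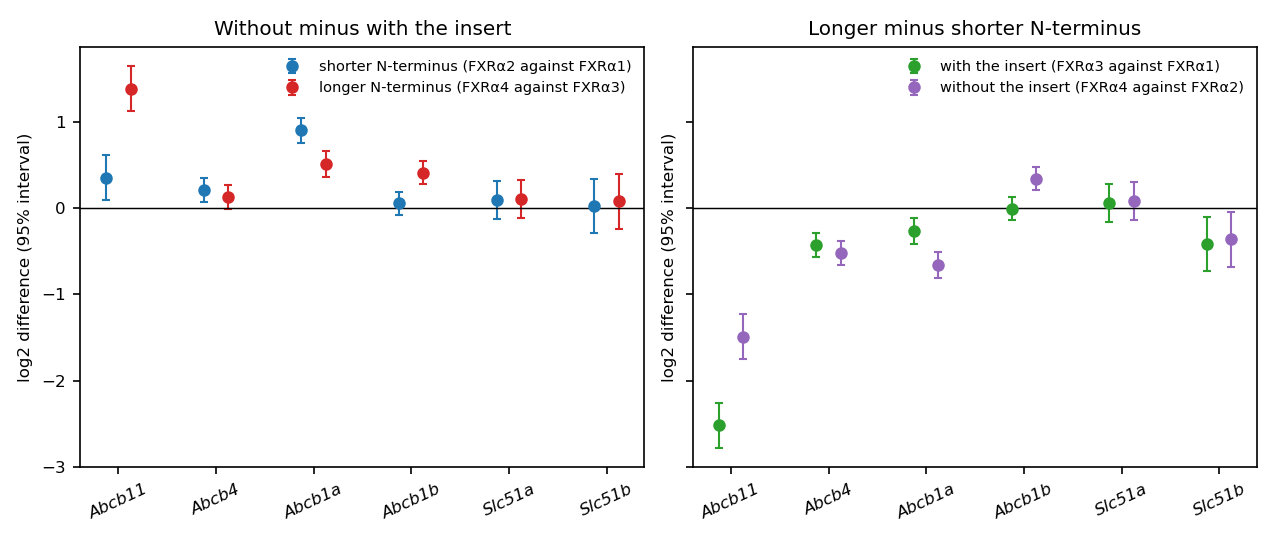
Differences between isoforms for each exporter gene, as log2 with 95% intervals from limma (3 arrays per group). The left panel gives isoforms without minus those with the insert, the right panel those with the longer minus those with the shorter N-terminus; Abcb11 lies at 1.38 for the insert on the longer N-terminus and at −2.52 and −1.49 for the N-terminus.

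Across the 15 arrays, which share their groups and normalization, Abcb11 tracked Abcb4 with Pearson r = 0.945, Abcb1a with r = 0.818 and Slc51b with r = 0.805, as a description. Abcb1b correlated with Abcb11 at r = 0.399 and with Abcb1a at r = 0.635, and Slc51a with no member above r = 0.164. The genes most like each member were sought among 706 genes whose group means had an SD of at least 0.5. For Abcb11 these were Wipf3 (r = 0.957), Ttyh3 (r = 0.955) and Elmo1 (r = 0.942), and for Abcb4 they were Ttyh3 (r = 0.966), Fgfr3 (r = 0.961), a fibroblast growth factor receptor gene, and Trpc1 (r = 0.953), a cation channel gene. For Abcb1a they were the ligand gene Bmp2 (r = 0.986), Mettl7b (r = 0.97) and Sema4g (r = 0.964). For Abcb1b they were the carbonic anhydrase gene Car13 (r = 0.957), Tdrkh (r = 0.952) and Ckap2 (r = 0.948). The nearest to Slc51b were Fam83f (r = 0.88), Spsb4 (r = 0.841) and Ttyh3 (r = 0.831), and none exceeded Gask1b (r = 0.515) for Slc51a.

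Abcb1a, Abcb1b and Abcb4 lie side by side on mouse chromosome 5, with 0 protein-coding genes between them. With FXRα2 their changes were 3.04, 0.28 and 0.86 in that order, and with FXRα4 2.38, 0.62 and 0.34. The genes flanking this cluster moved in both directions. Slc25a40, a mitochondrial carrier gene on the Abcb1a side, fell with FXRα2 (−0.55 ± 0.10) and FXRα4 (−0.70 ± 0.10), and Rundc3b, next to Abcb1a, rose with FXRα4 alone of the 4 isoforms tested against GFP (0.85 ± 0.12). On the Abcb4 side, the peroxisomal acyltransferase gene Crot rose with FXRα2 by 0.25 ± 0.05, or 0.029 with centring on the median gene. Beside Abcb11 on chromosome 2, Dhrs9, a retinol dehydrogenase gene, fell with all 4 isoforms (−0.99 ± 0.10, −1.44 ± 0.10, −1.71 ± 0.10 and −1.52 ± 0.10 for FXRα1 to FXRα4). Lrp2, the megalin gene beyond Dhrs9 on the same side, rose with FXRα2 (1.00 ± 0.12) and FXRα4 (0.87 ± 0.12). Of 24 flanking genes of the 6 members, 3 rose and 1 fell with FXRα1, 8 and 4 with FXRα2, 2 and 3 with FXRα3, and 8 and 5 with FXRα4. Of all 18820 genes, 8.42% rose and 752 genes fell with FXRα1. The shares that rose and fell were 17.5% and 16.7% with FXRα2, 7.45% and 6.62% with FXRα3, and 18.0% and 15.7% with FXRα4. Whether flanking genes moved more often than other genes was not tested.

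Other carriers of the hepatobiliary route moved in both directions. Of 21 measured, 5 rose and 1 fell with FXRα1, 5 rose and 7 fell with FXRα2, 3 rose and 3 fell with FXRα3, and 3 rose and 9 fell with FXRα4, with medians of 0.078, −0.06, 0.017 and −0.13. With centring on the median gene these counts were 3 and 6, 4 and 12, 3 and 3, and 1 and 13. That centring took the median change of all genes away from 0, to −0.10, −0.27, −0.041 and −0.24 for FXRα1 to FXRα4. Under it 62.6% of all genes were called with FXRα4. Without that centring, the shares of all genes were those given beside the flanking genes. Whether the carriers differed from those shares was not tested. Atp8b1, the canalicular flippase gene, rose with every isoform (0.69 ± 0.09, 0.76 ± 0.09, 0.42 ± 0.09 and 0.45 ± 0.09 for FXRα1 to FXRα4). Abcc2, the canalicular pump for conjugates, rose with both isoforms that hold the insert (0.52 ± 0.04 with FXRα1, 0.34 ± 0.04 with FXRα3) and fell with both that lack it (−0.39 ± 0.04 with FXRα2, −0.35 ± 0.04 with FXRα4). Abcc4, a basolateral pump that also carries bile acids, fell with FXRα2 (−0.99 ± 0.07) and FXRα4 (−0.75 ± 0.07). Slc10a1, the sodium-dependent uptake carrier for bile acids, rose with FXRα2 (1.07 ± 0.12) and with FXRα4 (0.40 ± 0.12, or 0.19 with adjusted p = 0.12 when centred on the median gene). Aqp8, a water channel of the canalicular membrane, fell with FXRα3 by 1.01 on the log2 scale and with FXRα1 by 0.45.

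**Figure D5:**
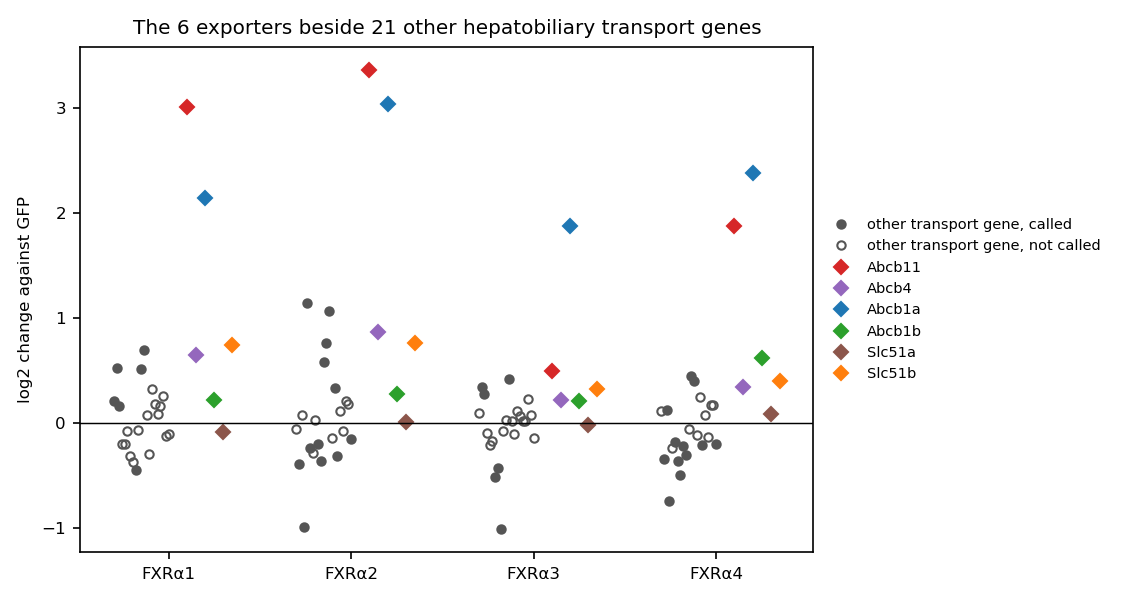
Log2 change against GFP (y axis) of the 6 exporters, as coloured diamonds, beside 21 other genes of hepatobiliary transport, as circles filled where limma called them, for each isoform (x axis). Abcb11 and Abcb1a lie above all circles for each isoform, whereas the circles fall on both sides of 0.

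Among the 6 other ABCB family genes measured, Abcb6, a porphyrin transporter gene, rose with FXRα1 (0.69 ± 0.07), FXRα2 (0.90 ± 0.07) and FXRα3 (0.36 ± 0.07) and no other member of that list rose with FXRα1 or FXRα3. With FXRα2 3 of them rose and 1 fell, beside 17.5% and 16.7% of all genes. With FXRα4 0 rose and 1 fell, beside 18.0% and 15.7%. Of 11 genes for traffic and anchoring of canalicular pumps, 3 rose and 1 fell with FXRα1, 3 and 2 with FXRα2, 2 and 1 with FXRα3, and 3 and 2 with FXRα4. These counts were not tested against the shares of all genes, which are given beside the flanking genes. The scaffold gene Slc9a3r1 rose with all isoforms (0.29 ± 0.06, 0.72 ± 0.06, 0.20 ± 0.06 and 0.50 ± 0.06 for FXRα1 to FXRα4), and Msn, the moesin gene, fell with all of them (−0.53 ± 0.05, −0.85 ± 0.05, −0.28 ± 0.05 and −0.42 ± 0.05).

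Of 12 nuclear receptors and partners that act on such promoters, 4 rose and 0 fell with FXRα1, 5 and 0 with FXRα2, 3 and 2 with FXRα3, and 3 and 2 with FXRα4. The shares of all genes are given beside the flanking genes, and the difference of this list from them was not tested. Hnf4a, a master regulator of hepatocyte genes, rose with each isoform by 1.09 ± 0.05, 1.54 ± 0.05, 0.67 ± 0.05 and 0.86 ± 0.05 for FXRα1 to FXRα4. Nr1i2, the xenobiotic receptor PXR that acts on P-glycoprotein genes, rose with FXRα1 (0.39 ± 0.11) and FXRα2 (1.58 ± 0.11) and fell with FXRα3 (−0.54 ± 0.11) and FXRα4 (−0.37 ± 0.11). Nr0b2, another textbook FXR target, passed upwards with FXRα2 (0.40 ± 0.13, or 0.18 with adjusted p = 0.274 when centred on the median gene), downwards with FXRα3 (−0.46 ± 0.13) and FXRα4 (−0.39 ± 0.13), and not with FXRα1 (−0.017 ± 0.13). The mouse Nr1h4 probe set rose with FXRα4 (0.41 ± 0.07) and did not pass with the others. Mouse and human transcripts cannot be told apart in this value, since the probe sequences were not available. Cyp7a1, the rate-limiting enzyme of bile acid synthesis that FXR is known to repress, passed with none of the isoforms (−0.093 to −0.039).

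Among the tested genes, 15 had a promoter window with an inverted repeat match as close as that of Abcb11. Of these, 5 rose and 0 fell with FXRα1, 4 rose and 0 fell with FXRα2, 3 rose and 2 fell with FXRα3, and 3 rose and 1 fell with FXRα4. The shares that rose were 33.3%, 26.7%, 20.0% and 20.0% for FXRα1 to FXRα4. Of all genes, 8.42%, 17.5%, 7.45% and 18.0% rose, so the share with FXRα4 was near that of all genes. The shares that fell were 13.3% with FXRα3 and 6.67% with FXRα4, beside 6.62% and 15.7% of all genes. These shares rest on 15 genes, of which Abcb11 is 1, and are given as a description. The cutoff was set at the match of Abcb11, which rose with every isoform and so adds to each share that rose. Shares without Abcb11 were not computed, and whether such a match goes with a rise was not tested.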

How the data were processed

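Total RNA was hybridised as biotin-labelled cDNA to Affymetrix mouse whole-transcript arrays. The authors deposited 1 table of log2 values for 35556 probe sets on 15 arrays; no source names the log base, which was taken from the range of 1.93 to 13.8. Affymetrix Expression Console 1.1 and PLIER are listed in the submitters' processing notes, with their roles not stated, and the normalization is not given in the sources used here. Of the probe sets, 21218 carry 1 gene symbol, 1881 several and 12457 none; the brightest per gene was kept, for 18820 genes.

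Group means of all 15 arrays were fitted with limma 3.58.1 in R 4.3.3 (eBayes with trend), two-sided, with Benjamini-Hochberg adjustment over all genes in each contrast. The fit was tested on simulated data in which all arrays varied independently, so that test does not cover deviations shared by same-numbered arrays. FXRα4 against FXRα1 and FXRα2 against FXRα3 were added after values were seen. Members, lists and the naming rule (all members; up to 4 genes of a list with the smallest adjusted p in a contrast; flanking genes called where their member is; the 3 most correlated genes with an SD of group means of at least 0.5; Nr1h4, Nr0b2 and Cyp7a1) were chosen with earlier results of these data known. Same-numbered arrays correlated in their deviations at over 0.1 in all 3 pairs for FXRα4 against FXRα3 (0.15 to 0.36). They did so too for FXRα4 against FXRα2 (0.13 to 0.43) and FXRα2 against FXRα3 (0.18 to 0.42). In no other pairwise comparison were all 3 pairs over 0.1. The labels do not say what a number marks. Alternatives were other variance settings, array weights, scalings, filters, probe sets, a replicate block and leaving out each array; centring on the median gene was chosen after seeing the data. Sequences are RefSeq's, and proteins were not used here. Figures used Python 3.11.15 and matplotlib 3.10.9.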

Additional observations from a re-analysis of the deposited data

Results flagged for a closer look

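The difference between isoforms without and with the insert was unequal on the 2 N-termini for 3 exporters, by the interaction test of limma. It was larger on the longer N-terminus for Abcb11 (1.03, adjusted p = 0.000416) and Abcb1b (0.35, adjusted p = 0.0115), and smaller for Abcb1a (−0.39, adjusted p = 0.0117).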

How the results depend on the processing

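Of 1008 member values recomputed under the alternatives, 907 kept direction and side of the threshold, 57 lost a call, 2 gained one and 42 changed sign, all 42 of them in differences that had not passed; the cause was not tested. Against GFP, the calls of Abcb11, Abcb1a, Abcb4 and Slc51b with FXRα1 and FXRα2 held in every alternative run. So did those of Abcb1a with FXRα3 and of Abcb11, Abcb1a and Abcb1b with FXRα4. The number of members called with FXRα3 fell from 4 to 2 without the mean-variance trend, to 1 with every probe set tested, and ranged from 1 to 4 when single arrays were left out. It fell from 5 to 3 with FXRα4 and from 3 to 1 for FXRα2 against FXRα1 with centring on the median gene, a comparison that ranged from 1 to 3 when single arrays were left out, and from 3 to 1 for the interaction with every probe set tested. Centring on the median gene moved the median change of all genes by −0.10 for FXRα1, −0.22 for FXRα2, −0.039 for FXRα3 and −0.21 for FXRα4 against GFP, by −0.12 for FXRα2 against FXRα1 and by −0.17 for FXRα4 against FXRα3. Each of these shifts took that median away from 0, against GFP to −0.10, −0.27, −0.041 and −0.24 for FXRα1 to FXRα4. Centring on the array median took it to −0.00865, −0.085, −0.0053 and −0.076 against GFP, for FXRα1 to FXRα4. Which scaling is nearest to the true changes was not tested. With the replicate block no call of a member changed (Abcb11 in FXRα4 against FXRα3 stayed at 1.38), and other probe sets of the members were not run, since each has 1.

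Sign changes with centring on the median gene were Slc51a with FXRα2 (−0.22) and FXRα4 (−0.13), for FXRα2 against FXRα1 Abcb1b (−0.060), Slc51a (−0.028) and Slc51b (−0.094), for FXRα4 against FXRα3 Abcb4 (−0.049), Slc51a (−0.068) and Slc51b (−0.097), Abcb1b for FXRα3 against FXRα1 (0.055), and the interactions of Slc51a (−0.040) and Slc51b (−0.0031). With array weights they were Slc51a with FXRα2 (−0.0096), Slc51b for FXRα2 against FXRα1 (−0.11), Abcb1b for FXRα3 against FXRα1 (0.0051) and the interaction of Slc51a (−0.074). With centring on the array median they were Slc51a with FXRα2 (−0.032), Slc51b for FXRα2 against FXRα1 (−0.0020) and the interaction of Slc51a (−0.0048), with the 75th percentile Slc51a with FXRα2 (−0.0071), Abcb1b for FXRα3 against FXRα1 (0.048) and the interaction of Slc51a (−0.035), and with quantile normalization Slc51b for FXRα2 against FXRα1 (−0.00046). Leaving out single arrays gave ranges across 0 for Slc51a with FXRα2 (−0.050 to 0.086), with FXRα3 (−0.077 to 0.058), for FXRα3 against FXRα1 (−0.020 to 0.15) and in the interaction (−0.071 to 0.097), for Slc51b for FXRα2 against FXRα1 (−0.13 to 0.16), for FXRα4 against FXRα3 (−0.0090 to 0.13) and in the interaction (−0.082 to 0.21), and for Abcb1b for FXRα2 against FXRα1 (−0.0078 to 0.11) and FXRα3 against FXRα1 (−0.046 to 0.039).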
